A study of Mus musculus with 28 samples.

Results

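The 8 genes described here make or shape hyaluronan and heparan sulfate in the extracellular matrix. They are the hyaluronan synthases Has1, Has2 and Has3, the hyaluronan-binding proteoglycan Vcan (versican), the heparan sulfate core proteins Hspg2 (perlecan) and Gpc3 (glypican 3), and the heparan sulfate 6-O-endosulfatases Sulf1 and Sulf2. They were chosen by name, 8 of the 22380 protein-coding genes of the GENCODE annotation of the mm9 build. The choice was made with earlier results of these data known. The shares over all genes set beside their counts are therefore descriptions and not independent tests. Values were read in 3 windows, namely 5 kb on each side of the transcription start site (TSS), the gene body, and the gene with 100 kb on each side.

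Hyaluronan is a long unsulfated sugar chain that the synthases extrude through the plasma membrane, and versican binds it in the loose matrix that surrounds migrating mesoderm and the early heart. Heparan sulfate is assembled on core proteins such as perlecan and the glypicans, where its sulfate groups hold growth factors including Fgf, Wnt and Bmp ligands. The extracellular sulfatases remove 6-O-sulfate from finished chains and so change which ligands are held.

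ChIP-seq was performed on mesodermal cultures derived from mouse embryonic stem cells (ESCs) at day 4, after 40 h of induction with Vegf, Activin A and Bmp4. For the histone marks and Suz12 the cells carried floxed Brg1 alleles and a tamoxifen-inducible Cre (Brg1 f/f;Actin-CreER), and from day 2 received either tetrahydrofuran (THF, control) or 200 nM 4-hydroxytamoxifen (4-OHT), which deletes Brg1, the ATPase of BAF chromatin remodeling complexes. H3K27ac, a mark of active promoters and enhancers, was profiled in 2 control and 2 4-OHT replicates, H3K27me3, the Polycomb mark, in 3 and 3, and Suz12, a Polycomb complex subunit, in 2 and 2. FLAG-tagged Brg1 was profiled in 3 replicates, for which the labels give Brg1 f/f;Actin-CreER cells and no THF or 4-OHT arm, although the study's methods describe a Brg1-FLAG line in duplicate, and 11 input samples were used by the authors for calling. Because Cre is driven by an actin promoter it acts in every cell of the culture and not in mesoderm alone. No FLAG list comes from deleted cells, so loss of Brg1 itself could not be checked here. The study itself reports loss of Brg1 protein and RNA after 4-OHT. It adds that some Brg1 activity might remain at this stage, because the protein falls gradually while mesoderm is induced.

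For each replicate a list of enriched regions was deposited, with a position but no read count or score, so read depth is unknown and the number and covered length of regions take its place. FLAG replicates 1 and 2 listed 8021 and 8257 regions, whereas replicate 3 listed only 192 and stood apart from the others. H3K27ac lists held 32161 to 41062 regions covering 26.1 to 30.8 Mb, H3K27me3 lists covered 4.74 to 11.0 Mb, and Suz12 lists 3.58 to 4.77 Mb. The quantity compared below is the number of base pairs covered by regions within a window, called covered length, which records what was called and not how strong the enrichment was. With 2 replicates against 2, the smallest two-sided p of an exact permutation test is 0.33, and with 3 against 3 it is 0.1, so no single comparison could pass a conventional threshold. A gene is therefore called lower or higher when every 4-OHT replicate lay below or above every control replicate, and the share of all genes that met the same rule is given beside each count. The p-values come from exchanging these biological replicates between conditions. They do not measure how far apart replicates lie, since at 2 against 2 every gene without overlap has an exact permutation p of 0.33.

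The cultures were checked against marker genes of the cell types they could hold. Of 6 mesoderm and primitive streak genes, 5 had H3K27ac within 5 kb of the TSS in every control list, and Kdr had none. The neural genes Pax6 and Neurog2 and the trophoblast genes Cdx2 and Elf5 had none, while 3 of 4 pluripotency genes carried it in every control list. Of 3 endoderm genes Gata6 alone carried it (2058 and 3458 bp in controls, 1658 and 3158 bp after 4-OHT), and of 3 cardiomyocyte genes Tnnt2 alone (1050 and 1450 bp in controls, 0 and 0 bp after 4-OHT). Summed over the list, mesoderm markers held 19190 to 27264 bp in controls and 13264 to 20089 bp after 4-OHT, and pluripotency markers 12444 to 13844 bp and 15221 to 15271 bp. Within the latter list Sox2 (3150 and 1850 bp in controls, 4577 and 4702 bp after 4-OHT) and Nanog (4069 and 4344 bp, 3219 and 3619 bp) went opposite ways, while Pou5f1 overlapped. In bulk chromatin, fewer cells of a type and less mark per cell cannot be told apart, and the part of these shifts in the results below was not tested. H3K27me3 was called within 5 kb of the TSS in every control list at 4 of 6 mesoderm genes and 1 of 4 pluripotency genes. The same held for 2 of 2 neural, 3 of 3 endoderm, 1 of 2 trophoblast and 0 of 3 cardiomyocyte genes.

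Brg1 was found near 6 of the 8 genes. A region was called Brg1-bound when it was enriched in at least 2 of 3 FLAG replicates. Within 5 kb of the TSS, 2 of 8 genes (Has2 and Vcan) met this rule, against 2.11% of all protein-coding genes. In the gene body the count was 4 of 8 (Has2, Vcan, Hspg2 and Sulf1, against 3.63%), and within 100 kb it was 6 of 8 (Gpc3 and Sulf2 in addition, against 19.6%). The windows with 100 kb on each side were 212 to 542 kb long for the 8 genes, compared with a median of 215 kb for all genes. The 4 gene bodies with a Brg1-bound region were 28.9 to 142 kb long. A longer window can hold more regions, and the shares over all genes were not matched for length. The counts rest on FLAG replicates 1 and 2, since replicate 3 had no region in any of these windows, and all of them were 0 when replicate 1 or replicate 2 was left out.

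In total 11 Brg1-bound regions lay within 100 kb of the 8 genes, and all 11 fell inside an H3K27ac region called in both controls. Of the 2390 Brg1-bound regions in the genome, 72.9% did so. Another 24 FLAG regions near these genes were seen in a single replicate. They included the Has3 promoter, where replicate 1 listed 109393801 to 109394000 and 109394226 to 109394350 on chromosome 8 and replicate 2 listed 109394376 to 109394675, adjacent to but not overlapping the first pair, so Has3 was not counted as bound.

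The sequences of 5 of the 11 Brg1-bound regions are shown, namely the widest at a synthase, at versican, at a core protein and at each sulfatase. The 2 at the core protein Hspg2, which held none of the letters searched below, are not shown. Each sequence shown is the central 300 bases on the plus strand of mm9, read from the reference genome. Has2 is shown at its promoter (chr15:56526313-56526612), and Vcan in the first part of the gene (chr13:89878463-89878762). Gpc3 is shown 18.6 kb upstream of the TSS (chrX:49985626-49985925), Sulf1 in an intron 117 kb downstream (chr1:12825363-12825662), and Sulf2 at a region in an intron of the neighbouring gene Ncoa3 (chr2:165825251-165825550). Capitals mark a match, on either strand, to the T-box letters AGGTGTGA, the GATA-factor letters AGATAAG or the Fox letters TGTTTAC, and the sequences without capitals held none.
Has2: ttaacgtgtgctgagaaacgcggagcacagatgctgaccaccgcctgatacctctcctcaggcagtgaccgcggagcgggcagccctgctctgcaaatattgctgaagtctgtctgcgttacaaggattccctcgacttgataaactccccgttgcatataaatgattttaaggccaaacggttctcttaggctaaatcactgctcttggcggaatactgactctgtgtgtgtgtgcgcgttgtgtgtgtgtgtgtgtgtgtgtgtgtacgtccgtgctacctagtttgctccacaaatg
Vcan: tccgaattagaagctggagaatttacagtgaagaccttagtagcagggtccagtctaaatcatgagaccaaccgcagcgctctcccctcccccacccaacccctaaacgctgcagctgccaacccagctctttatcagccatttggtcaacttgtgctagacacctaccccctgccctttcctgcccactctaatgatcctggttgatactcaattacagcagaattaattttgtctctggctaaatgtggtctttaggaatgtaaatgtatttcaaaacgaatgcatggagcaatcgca
Gpc3: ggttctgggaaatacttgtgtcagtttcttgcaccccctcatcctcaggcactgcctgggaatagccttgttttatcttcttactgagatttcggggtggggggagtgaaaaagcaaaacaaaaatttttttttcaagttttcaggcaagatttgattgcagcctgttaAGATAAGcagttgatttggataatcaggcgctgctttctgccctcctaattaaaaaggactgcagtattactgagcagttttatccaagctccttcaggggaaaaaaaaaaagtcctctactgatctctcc
Sulf1: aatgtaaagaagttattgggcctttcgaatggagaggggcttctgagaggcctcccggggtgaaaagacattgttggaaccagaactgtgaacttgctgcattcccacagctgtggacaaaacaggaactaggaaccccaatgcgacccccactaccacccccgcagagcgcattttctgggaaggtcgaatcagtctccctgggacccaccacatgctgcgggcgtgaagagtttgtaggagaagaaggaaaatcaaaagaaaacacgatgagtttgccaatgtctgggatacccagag
Sulf2: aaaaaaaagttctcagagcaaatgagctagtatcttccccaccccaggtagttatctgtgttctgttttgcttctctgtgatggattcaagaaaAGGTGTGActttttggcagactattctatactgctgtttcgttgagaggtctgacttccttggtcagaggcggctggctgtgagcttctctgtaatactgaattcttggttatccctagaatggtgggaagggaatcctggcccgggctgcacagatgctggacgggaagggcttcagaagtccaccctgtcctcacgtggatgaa

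Matches to these letters were counted in the 11 regions and in all Brg1-bound regions. With 0 or 1 matching region per motif, a difference from the share over all regions cannot be read. The T-box letters were found in 1 of the 11 regions (Sulf2) and in 1.76% of the 2390 Brg1-bound regions, the GATA letters in 1 of 11 (Gpc3) and 5.77%, and the Fox letters in 0 of 11 and 5.06%. The central 300 bases of the Has2 promoter region held 16 CpGs, whereas the Gpc3 region shown held 2. Median GC content was 47.7% over the 11 regions and 46% over all Brg1-bound regions. The promoters themselves differed in CpG content. The ratio of observed to expected CpG within 500 bp of the TSS was lowest at Has1 (0.202) and Sulf1 (0.350) and highest at Sulf2 (0.781) and Hspg2 (0.759), with a median of 0.549 over 22377 genes.

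H3K27ac was present within 5 kb of the TSS of 7 of the 8 genes in control mesoderm, and Has1 had none in any list. Upon 4-OHT treatment the covered length was lower at Has3, Vcan and Sulf1 and higher at Sulf2. Thus 3 of 7 genes were lower and 1 of 7 higher, whereas of the 12031 protein-coding genes with a region in this window 12.6% were lower and 39.8% higher. The median difference was -250 bp for the 7 genes and 112.5 bp for all 12031.

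Among the hyaluronan synthases, Has2 held the longest stretch of H3K27ac at its TSS of the 8 genes. Has2 (chromosome 15, 56497182 to 56526094, minus strand) is the main synthase of the embryo. It covered 4675 and 4875 bp in control replicates 1 and 2, and 4375 and 4675 bp in 4-OHT replicates 1 and 2. The conditions touched at 4675 bp, so the promoter of Has2 was not called lower (exact permutation p = 0.667). Has3 (chromosome 8, 109394142 to 109406802, plus strand) covered 3125 and 2900 bp in controls and 2250 and 2300 bp after 4-OHT. Both 4-OHT values were below both controls, a difference of -24.5% (exact permutation p = 0.33).

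Versican (Vcan, chromosome 13, 89794915 to 89882117, minus strand) is the large proteoglycan that ties hyaluronan into the matrix. It covered 3825 and 3975 bp in controls and 2875 and 3075 bp after 4-OHT, a difference of -23.7% with no overlap (exact permutation p = 0.33). This shortening went with more and not fewer regions, since the stretch was listed as 1 and 2 regions in controls and as 2 and 3 regions after 4-OHT. The Brg1-bound region of Vcan lay 3.50 kb into the gene, inside this stretch. FLAG replicate 1 covered 50 bp of it and replicate 2 covered 575 bp.

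The heparan sulfate core proteins had short or variable promoter regions. Hspg2 (chromosome 4, 137024634 to 137126545, plus strand), a basement membrane proteoglycan, covered 2300 and 825 bp in controls and 2825 and 1375 bp after 4-OHT. Gpc3 (chromosome X, 49625603 to 49967127, minus strand), a membrane-anchored glypican, covered 250 and 1550 bp in controls and 200 and 450 bp after 4-OHT. The conditions overlapped at both genes. The replicates of one condition differed more than the conditions did at Hspg2, and at Gpc3 the control replicates lay apart by more than the difference of -575 bp between the means.

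The sulfatases moved apart. Sulf1 (chromosome 1, 12708626 to 12850452, plus strand) covered 1450 and 1500 bp in controls and 1375 and 1350 bp after 4-OHT, a small difference of -7.63%. Expressed as a share of each list's total covered length it was -0.64% and the replicates overlapped. Sulf2 (chromosome 2, 165898589 to 165981163, minus strand) covered 1975 and 1850 bp in controls and 2200 and 2125 bp after 4-OHT, a difference of +13.1% (exact permutation p = 0.33 for each gene). Both sulfatases were single regions at the TSS in every list.

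In the gene body 4 of 7 genes were lower (Has2, Vcan, Gpc3 and Sulf1) and 1 was higher (Sulf2), compared with 18.3% and 33.3% of 12542 genes with a region there. As a share of each list's covered length Sulf1 overlapped (-10.3%) and 3 were lower. Has2 covered 3844 and 4319 bp in controls and 3044 and 3319 bp after 4-OHT, and Vcan 4275 and 4350 bp against 3325 and 3475 bp. Sulf1 covered 5775 and 6650 bp in controls and 4800 and 5500 bp after 4-OHT. Gpc3 stood out, with 1250 and 3500 bp in controls and 0 and 775 bp after 4-OHT, a difference of -83.7%. Sulf2 covered 2138 and 1763 bp in controls and 2988 and 2588 bp after 4-OHT, or +42.9%. Each of these had an exact permutation p of 0.33. Has3 and Hspg2 overlapped, the latter with 16075 and 14650 bp in controls and 17050 and 10000 bp after 4-OHT.

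Over the gene with 100 kb on each side, 5 of 8 genes were lower and 0 were higher. Of 19481 genes with a region in this window, 24.3% were lower and 37% higher, and the median difference was 175 bp for all genes and -1256.5 bp for the 8. The genes called lower were Has2, Vcan, Gpc3, Sulf1 and Sulf2. Expressed as a share of each list's covered length 3 remained lower (Has2, Vcan and Sulf1). The window of Has1 reaches 5 other protein-coding TSSs, that of Has3 3, that of Hspg2 6 and that of Sulf2 1 (Ncoa3), so not all of this H3K27ac need belong to the named gene. No other protein-coding TSS lay within 100 kb of Has2, Vcan, Gpc3 or Sulf1.

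**Figure D1:**
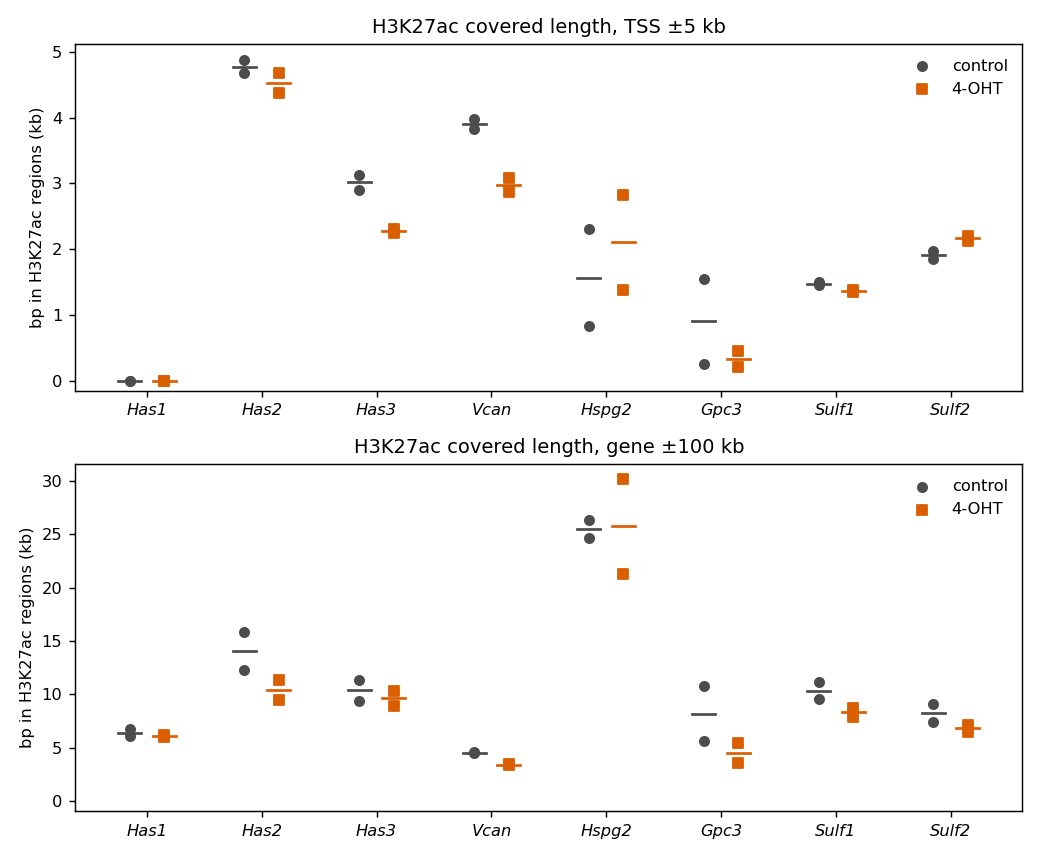
Covered length of H3K27ac regions (kb) in each replicate at the 8 genes, within 5 kb of the TSS (top) and over the gene with 100 kb on each side (bottom). Grey circles are the 2 control replicates, orange squares the 2 4-OHT replicates, and bars their means. At the TSS the 4-OHT values of Has3, Vcan and Sulf1 lie below both controls and those of Sulf2 above. Over the wider window 5 genes lie below both controls.

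By gene, Has2 covered 12250 and 15800 bp in controls and 9475 and 11350 bp after 4-OHT, or -25.8%, and -15.0% without control replicate 2. Vcan covered 4475 and 4550 bp in controls and 3325 and 3475 bp after 4-OHT, or -24.7%. Gpc3 covered 5650 and 10725 bp in controls and 3575 and 5400 bp after 4-OHT, or -45.2%, and -20.6% without control replicate 2. The larger values of control replicate 2 at Has2 and Gpc3 thus carried much of both differences, whereas the replicates of Vcan lay close together.

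Sulf1 covered 9550 and 11100 bp in controls and 7875 and 8725 bp after 4-OHT, or -19.6%. Sulf2 covered 7388 and 9038 bp in controls and 6500 and 7125 bp after 4-OHT, or -17.1%, and -7.79% without control replicate 2. Sulf2 was therefore higher at its TSS and gene body but lower over the wider window, and with 50 kb on each side it was 40.1% higher. The exact permutation p was 0.33 for each of the 5 genes. Has1 (6050 and 6700 bp against 6175 and 6025 bp), Has3 (9350 and 11375 bp against 8900 and 10300 bp) and Hspg2 (26375 and 24625 bp against 30225 and 21300 bp) overlapped.

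Individual H3K27ac regions were then followed within these windows. A control region was one called in both control replicates, and it was a promoter region if it lay within 2.5 kb of an annotated TSS and distal otherwise. The windows held 21 promoter and 31 distal control regions. After 4-OHT, 1 of 21 promoter regions was missing from both lists, against 6.04% of 13418 such regions in the genome. Of the distal regions 6 of 31 were missing (19.4%, exact Clopper-Pearson 95% interval 7.45 to 37.5%, counting error only), against 33.1% of 13914. Regions at 1 gene share the same lists and are not replicates, so the interval is a description. When control replicate 2 alone defined the regions, 50.8% of 61 were missing, against 54.4% of 24276 in the genome.

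Measured within the control regions, 20 of 31 distal regions were lower in both 4-OHT replicates and 0 were higher, whereas in the genome 60.1% were lower and 2.91% higher. Of the promoter regions 7 of 21 were lower and 2 higher, against 21.3% and 8.27%. Length gained beyond the edge of a control region is not counted here, so lower calls are favoured throughout, and the distal share near these genes was close to that of the genome. Brg1-bound regions lay in 6 of 31 distal and 2 of 21 promoter control regions, compared with 7.6% and 3.29% of all such regions. None of the 6 Brg1-bound distal regions was missing after 4-OHT and 5 were lower, against 26.7% missing and 79.9% lower among 1058 in the genome.

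**Figure D2:**
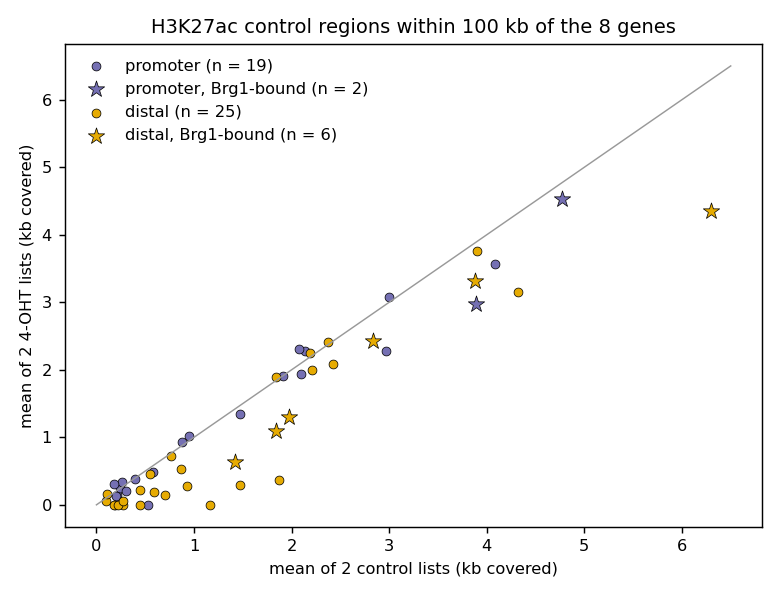
Mean covered length (kb) of each of the 21 promoter and 31 distal H3K27ac control regions within 100 kb of the 8 genes, in 2 control lists (horizontal axis) and 2 4-OHT lists (vertical axis). Purple marks promoter and yellow distal regions, stars are regions with a Brg1-bound region inside, and the line shows equal length. Most distal points lie below the line, and the 7 regions in no 4-OHT list lie on the horizontal axis.

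At Has2, Brg1 was bound at the promoter, in an intron and at a distal site beyond the 3′ end. The distal H3K27ac region (chr15:56457851-56459975), centred 67.2 kb downstream of the TSS, covered 1550 and 2125 bp in controls and 975 and 1200 bp after 4-OHT. The intronic region (chr15:56516376-56518025), 8.89 kb downstream, covered 1200 and 1650 bp in controls and 475 and 800 bp after 4-OHT. Both were shorter in each 4-OHT replicate than in either control, whereas the promoter region (chr15:56523426-56528300) overlapped.

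Other regions of the Has2 locus, described here after their values were seen, lay upstream within Has2as, a noncoding gene antisense to Has2. One centred 37.9 kb upstream covered 825 and 2925 bp in controls, was not called in 4-OHT replicate 1 and covered 750 bp in replicate 2. Another, 48.5 kb upstream, covered 3875 and 3925 bp in controls and 3625 and 3900 bp after 4-OHT, so the conditions overlapped. FLAG replicate 1 covered 550 bp of the latter and replicate 2 covered 25 bp, without sharing a base. A region of 250 bp at 71.2 kb downstream was in no 4-OHT list.

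**Figure D3:**
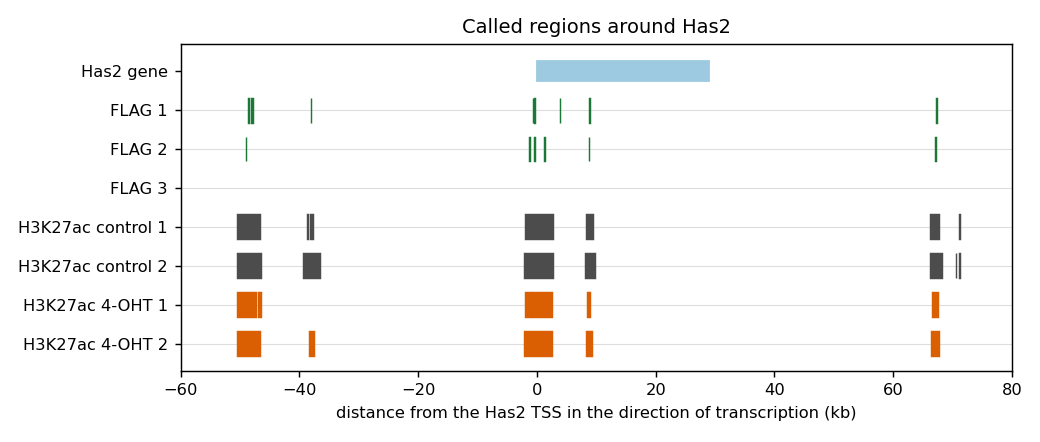
Regions called in each FLAG and H3K27ac list around Has2, drawn to scale by distance from the TSS (kb) in the direction of transcription, with the gene as a blue bar. Green marks FLAG, grey H3K27ac in control and orange H3K27ac after 4-OHT. Regions at 8.89 and 67.2 kb are narrower in both 4-OHT lists, and that at -37.9 kb is absent from 4-OHT replicate 1.

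Has3 and Has1 had no Brg1-bound region. The Has3 promoter region (chr8:109392276-109395400, named after its values were seen) covered 3125 and 2800 bp in controls and 2250 and 2300 bp after 4-OHT. At Has3 a region of 900 bp centred 59.4 kb downstream and another of 325 bp at 69.2 kb, in an intron of Sntb2, were in no 4-OHT list. Conversely, 3 regions near the 8 genes, also named afterwards, were called in both 4-OHT lists and in no control list. A region of 750 bp in an intron of Chtf8, 18.4 kb from the Has3 TSS, covered 500 and 750 bp, and the other two lay in introns of Usp48 in the Hspg2 window, 128 and 173 kb from its TSS. The H3K27ac within 100 kb of Has1 lay mainly in a pair of regions at annotated TSSs of Ncrna00085, downstream of Has1 and likewise described after their values were seen. The wider of them (chr17:17962051-17966250) covered 4025 and 4150 bp in controls and 3500 and 3625 bp after 4-OHT, and the other covered 2025 and 2250 bp in controls and 2275 bp in each 4-OHT replicate.

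At Vcan nearly all H3K27ac lay in the region at the TSS (chr13:89877776-89882000). A narrow region of 200 bp, 37.6 kb upstream in an intron of Xrcc4, covered 200 and 150 bp in controls and was in no 4-OHT list. Hspg2 carried its H3K27ac in the first introns. The widest region (chr4:137031226-137037825), centred 9.89 kb downstream of the TSS, held 2 Brg1-bound regions and covered 6600 and 6000 bp in controls and 5050 and 3650 bp after 4-OHT. It was lower in both 4-OHT replicates although the Hspg2 gene body as a whole overlapped. A region of 750 bp beside it covered 525 and 375 bp in controls and was in no 4-OHT list.

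Gpc3 had its widest H3K27ac region outside the gene. This region (chrX:49983251-49987425), centred 18.2 kb upstream, held 2 Brg1-bound regions and covered 3575 and 4175 bp in controls and 3000 and 3625 bp after 4-OHT, so the conditions overlapped. A region of 225 bp in an intron, 265 kb downstream of the TSS, was in no 4-OHT list. An intronic region 12.5 kb downstream, described after its values were seen, covered 1025 and 1925 bp in controls, was not called in 4-OHT replicate 1 and covered 575 bp in replicate 2. It accounted for most of the H3K27ac in the body of this 342 kb gene. A region 37.8 kb upstream, likewise chosen afterwards, covered 575 and 600 bp in controls and 0 and 375 bp after 4-OHT.

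The Brg1-bound H3K27ac region of Sulf1 lay near the 3′ end of the gene (chr1:12824101-12827150), centred 117 kb downstream of the TSS. FLAG replicates 1 and 2 covered 650 and 1300 bp of it, and the latter was the widest coverage by a single FLAG replicate in any H3K27ac control region near the 8 genes. Its H3K27ac covered 2725 and 2950 bp in controls and 2150 and 2700 bp after 4-OHT, lower in both replicates. The call is a narrow one, since 2700 and 2725 bp are adjacent values in lists with edges at multiples of 25 bp. A region 81.6 kb upstream, named after its values were seen, covered 800 and 1050 bp in controls and 125 and 425 bp after 4-OHT. No Sulf1 control region was missing from both 4-OHT lists.

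Sulf2 had its Brg1-bound region in an intron of Ncoa3, 156 kb downstream of the Sulf2 TSS. The H3K27ac region there (chr2:165823826-165825975) covered 1800 and 2150 bp in controls and 1100 and 1500 bp after 4-OHT. At the other end of the window, a region of 1300 bp centred 99.8 kb upstream (chr2:166080301-166081600) covered 1025 and 1300 bp in controls and was in no 4-OHT list, the widest region lost near any of the 8 genes. The control regions of Sulf2 that were called lower thus lay at least 156 kb downstream or 99.8 kb upstream of its TSS.

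Polycomb marks were nearly absent from these genes, with Has1 as the exception. H3K27me3 was present within 5 kb of the TSS of Has1 and Vcan, at Vcan as 25 bp in control replicate 2 and 25 bp in 4-OHT replicate 2. Has1 (chromosome 17, 17980292 to 17992152, minus strand) covered 975, 1049 and 799 bp in control replicates 1 to 3 and 525, 1024 and 200 bp after 4-OHT. The conditions overlapped because 4-OHT replicate 2 was as high as the controls (difference -38.0%, exact permutation p = 0.3). Thus 0 of 2 genes were lower in every 4-OHT replicate, against 12% of 4204 genes.

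Same-numbered H3K27me3 replicates deviated together, and taken as pairs Has1 was lower in 3 of 3 (exact paired permutation p = 0.25, the smallest that 3 pairs allow), as were 44.1% of the 4204 genes. Without 4-OHT replicate 2 the difference at the TSS was -61.5% and without 4-OHT replicate 3 it was -17.7%. As a share of each list's covered length it was -13.8%. Most of the mark formed a region over an exon (chr17:17985351-17988325), 5.31 kb into the gene, which covered 1725, 2625 and 2175 bp in controls and 1025, 2400 and 900 bp after 4-OHT. Over the gene body Has1 covered 2650, 2625 and 2175 bp in controls and 1350, 2400 and 900 bp after 4-OHT (exact permutation p = 0.2). Has1 was thus the gene among the 8 with H3K27me3 in its body in every list and H3K27ac at its TSS in none. No H3K27me3 region of Has1 lay within 2.5 kb of its TSS. The values within 5 kb are therefore the nearer part of regions inside the gene.

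**Figure D4:**
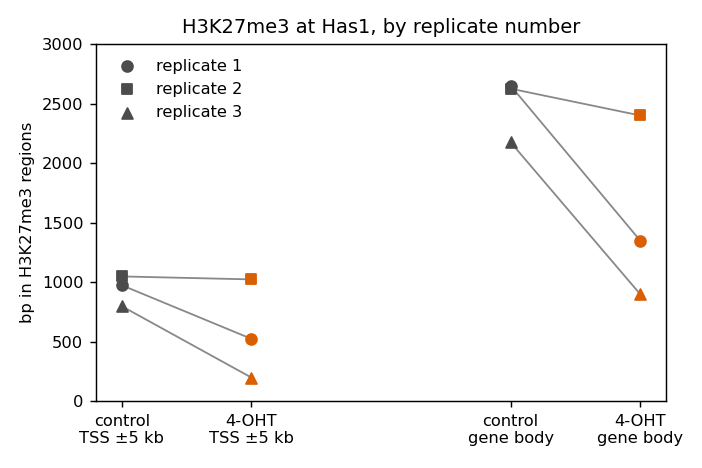
Covered length of H3K27me3 regions (bp) at Has1 in control and 4-OHT replicates, within 5 kb of the TSS (left) and over the gene body (right). Lines join replicates of the same number and symbols mark the number. Each pair is lower after 4-OHT, and replicate 2 changes least.

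Within 100 kb, H3K27me3 was also found near Hspg2, with 1075, 1875 and 2050 bp in controls and 325, 1725 and 1000 bp after 4-OHT. It lay mainly at the promoter of Rap1gap, 196 kb from the Hspg2 TSS. In this window 0 of 3 genes were lower in every 4-OHT replicate (17.9% of 12457 genes), and 2 of 3, Has1 and Hspg2, were lower in every pair (55.6%). Suz12 was not called at the TSS or in the body of any of the 8 genes, so a change there could not be measured. Of the 2290 genes with a Suz12 region at the TSS 32.1% were higher. A single Suz12 region within 100 kb of Hspg2 (chr4:137220501-137220975), also at the Rap1gap promoter, covered 200 and 175 bp in controls and 275 and 475 bp after 4-OHT. It made Hspg2 the 1 gene with a region and higher in this window, compared with 31% of 7547 genes. At Has1, H3K27me3 was thus listed without Suz12.

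To place the 8 genes in their pathway, 58 other genes of hyaluronan and heparan sulfate metabolism were read at the TSS. Of these, 32 had H3K27ac, and 5 were lower, 14 higher and 13 overlapping, against 12.6% and 39.8% of all genes. The median difference over the 32 was 87.5 bp. Among the 5 genes called lower, the largest differences were at Ndst1, an N-deacetylase and N-sulfotransferase that starts chain modification (2550 and 2675 bp in controls, 1475 and 1500 bp after 4-OHT), the glypican Gpc6 (2525 and 3950 bp, 2250 and 2400 bp) and the chain polymerase Ext1 (2325 and 2700 bp, 1800 and 1775 bp). Genes of heparan sulfate made up 23 of the 32, all 5 lower genes and 9 of the 14 higher genes. Genes of hyaluronan made up the other 9, of which 0 were lower and 5 higher. With so few genes called, a difference between these classes cannot be read.

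Among those called higher, the largest differences were at the syndecan Sdc4 (250 and 325 bp in controls, 1264 and 1450 bp after 4-OHT), the hyaluronan receptor Hmmr (1925 and 1875 bp, 3025 and 2825 bp) and the hyaluronidase gene Hyal1 (5025 and 4400 bp, 5425 and 5800 bp). The neighbouring hyaluronidase genes Hyal2 and Hyal3 were also higher, and their windows may share regions with that of Hyal1. Brg1 binding within 5 kb of the TSS was called at 0 of the 58 genes, against 2.11% of all protein-coding genes. At that share few of 58 genes would be called, so the 0 does not set them apart.

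H3K27me3 was present at the TSS of 22 of the 58 genes, of which 5 were lower in every 4-OHT replicate and 12 lower in every pair, against 12% and 44.1% of all genes with a region there. The largest of the 5 differences was at Acan (aggrecan), a cartilage relative of versican, with 3325, 4225 and 4250 bp in controls and 1150, 2700 and 2450 bp after 4-OHT. The next were the 6-O-sulfotransferase gene Hs6st3 (3275, 4050 and 3575 bp, 2900, 2650 and 2875 bp) and the glypican Gpc5 (2875, 3525 and 3000 bp, 2825, 2500 and 2325 bp). Each of the 3 had an exact permutation p of 0.1. Suz12 was present at 14 genes, of which 6 were higher, against 32.1% of 2290 genes. The 3-O-sulfotransferase gene Hs3st3b1 covered 2450 and 3775 bp of Suz12 in controls and 4400 and 6000 bp after 4-OHT, the link protein gene Hapln4 1675 and 1525 bp against 2278 and 3903 bp, and Hs3st3a1 0 and 0 bp against 825 and 1050 bp.

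Finally, the genes whose covered length at the TSS was most like that of each of the 8 were found by Euclidean distance over all 17 lists. Sulf2 had the closest neighbours, Pan2 at 154 bp and Zfp446 at 156 bp, followed by Sulf1 with Gm9925 and Mapk4 at 192 bp each. Gpc3 was closest to Adamts3 (325 bp), Has3 to Hivep1 (353 bp), Hspg2 to Gm11067 (353 bp), Vcan to Gprc5c (370 bp), Has1 to Cav1 (389 bp) and Has2 to Ptpn13 (504 bp). None of these is among the 8 genes.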

How the data were processed

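ChIP-seq was read at day 4 in 28 samples, of which 17 had a deposited list of enriched regions and 11 were inputs not otherwise used. Per the labels and methods, the authors aligned reads to mm9 with Bowtie and called regions over input in each replicate separately. The threshold in the lists, taken here as a p-value, is 1e-06 for FLAG, with at least 2-fold enrichment over input, and 1e-12 for the other marks. The deposited values are region positions only, without counts, scores or depth, and all edges are multiples of 25 bp. Thus a region that crosses the threshold more widely, or a more deeply sequenced library, gives more covered length. Aligner settings and read filters are not given in the sources used here.

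Groups and replicate numbers were taken from the labels. Covered length was counted in windows of 5 kb around the TSS, the gene body, and the gene with 100 kb on each side, from the GENCODE vM1 annotation of mm9. Regions of replicates sharing at least 1 bp were merged. Conditions were compared by non-overlap of replicates and by two-sided exact permutation tests, with the share over all protein-coding genes as background. Same-numbered H3K27me3 replicates correlated in their deviations from the condition means (0.932, 0.875 and 0.796 for numbers 1 to 3), so the numbers were taken as pairs for this mark, from the lists alone. Of the pathway genes, up to 3 with the largest difference per mark and direction are named. Of H3K27ac control regions, those named hold a Brg1-bound region or are in no 4-OHT list, at most the widest 3 per gene, and others are said to be chosen after their values were seen. The genes and lists were chosen with earlier results of these data known. One marker, Sox1, was not used here. The alternatives were each replicate left out, a replicate block, and other windows, widths, scalings and joins. Scripts were checked on simulated regions of known overlap. Calculations ran in SciPy 1.17.1 and NumPy 2.4.6 under Python 3.11.15, and plots in Matplotlib 3.10.9.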

Additional observations from a re-analysis of the deposited data

How the results depend on the processing

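Of the values recomputed for the 28 changes in covered length under alternatives other than leaving out a replicate, 166 moved by less than the spread between replicates, 31 moved by more and 4 reversed a change whose replicates did not overlap. The 166 include the comparison of same-numbered replicates (replicate block). It leaves each of the 28 changes as it was, so those values could not move. A further 10 values whose replicates had overlapped also changed sign. The 4 were Vcan H3K27ac at the TSS (+66.7%) and in the gene body (+40%) and Has2 in the gene body (+25%) when regions were counted in place of base pairs, and Sulf2 with 50 kb on each side (+40.1%). Counting regions, 0 genes were lower in H3K27ac at the TSS, 0 in the gene body and 3 within 100 kb, and 0 were higher in Suz12 within 100 kb. By the same count Hspg2 was higher in H3K27ac within 100 kb, with 27 and 21 regions in controls and 41 and 30 after 4-OHT. It was also higher in the gene body, with 15 and 8 regions in controls and 23 and 16 after 4-OHT. As a share of each list's covered length, 3 genes were lower in H3K27ac within 100 kb. With regions less than 1 kb apart joined, 1 gene was lower in H3K27me3 at the TSS and 1 within 100 kb. With 50 kb on each side 0 genes were higher in Suz12.

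Under a replicate block, which compares same-numbered replicates, 5 genes were lower in H3K27ac at the TSS, 1 in H3K27me3 at the TSS and 2 within 100 kb, and no other count moved by more than 1 gene. This rule is looser than non-overlap, since every gene called by non-overlap also meets it. For H3K27me3 it was met by 44.1% of all genes with a region at the TSS and 55.6% within 100 kb. The share for H3K27ac is not given here, so the 5 genes cannot be set against it. For H3K27ac and Suz12 the correlations of deviations were 0.418 and 0.444 over only 2 numbers, which does not show pairing. Brg1-bound genes at the TSS numbered 5 with a region in any FLAG replicate, 0 in all 3, 1 with a window of 2.5 kb and 1 with regions of at least 100 bp, and within 100 kb 0 in all 3.

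Leaving out each replicate gave 3 to 5 genes lower in H3K27ac at the TSS (5 without control replicate 1 or 4-OHT replicate 2), 4 to 5 in the gene body and 5 to 7 within 100 kb. For H3K27me3 it gave 0 to 1 at the TSS (1 without 4-OHT replicate 2) and 0 to 2 within 100 kb (2 without 4-OHT replicate 2, 1 without control replicate 1 or 3). Brg1-bound genes ranged from 0 to 2 at the TSS and 0 to 6 within 100 kb, with 0 without FLAG replicate 1 or 2. No share over all genes is given beside these counts, so they show only how far the counts move. The share of distal regions in no 4-OHT list ranged from 18.4 to 50.8%, the latter without control replicate 1. The cause of these shifts was not tested. Since no list holds counts, depth could not be equalised between replicates, and the gene body counts and region losses were tried under alternatives chosen after seeing the data.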
